A study of Mus musculus with 8 samples.

Results

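The response of mouse macrophages to all-trans retinoic acid (ATRA) was compared in the presence and in the absence of omentum culture supernatant (OMsup). All 8 arrays of the series form a 2 x 2 design for this comparison. The quantity tested for each gene was the effect of ATRA with OMsup (ATRA+OMsup minus OMsup) minus the effect of ATRA without it (ATRA minus untreated), on normalized log2 intensity. It is called the interaction below, and 0 means that the effects of both agents added up on the log2 scale. Of 45281 probes, 18503 were above background on at least 2 arrays. They gave 10068 named genes, each by its brightest probe, and 2725 probes without a usable gene symbol, 12793 in all.

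The cells were macrophages that had been grown from the bone marrow of C57BL/6 mice, with M-CSF as growth factor over 7 days. The groups were ATRA+OMsup, ATRA, OMsup and untreated, with 2 arrays each. ATRA was given at 1 µM, and stimulation lasted 24 h in a serum-free macrophage medium. Whether untreated cells received that medium is not given in the labels. If they did not, a shift caused by the medium would be part of each agent's effect on untreated cells and would enter the interaction with its sign turned, and it cannot be told apart from the interaction. Nothing in the labels ties replicates to separate cultures or mice, or arrays to bead chips. The p-values therefore measure no more than how far these samples spread, which could be technical, and a chip effect was not tested.

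ATRA is the vitamin A metabolite that binds the nuclear retinoic acid receptors. These receptors pair with RXR and bind direct repeats of a short DNA element near their target genes. The omentum is the fatty fold of the peritoneum, and macrophages of the peritoneal cavity are exposed to retinoids and other factors made there. A gene that needs both a retinoid and a second signal appears in a 2 x 2 design as high only where both were given, and a gene on which one signal blocks the other appears as a lost effect.

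Per array, 16116 to 16784 probes were above background, and replicate arrays correlated at 0.9894 to 0.9925 across probes. All 8 macrophage markers with a probe, among them Adgre1, Csf1r and Lyz2, were above background on every array. None of 6 mesothelial markers, such as Msln and Upk3b, was above background on any. Of 5 adipocyte markers with a probe, Lep alone was, on 1 ATRA+OMsup and 1 OMsup array. Of 6 fibroblast markers, Dcn was above background on 3 arrays and Pdgfra on 2. Of 3 B cell markers with a probe, Cd79b was above background on all 8 arrays. In such bulk RNA, fewer cells of a type and less RNA per cell cannot be told apart.

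The interaction passed an adjusted p under 0.05 for 31 genes or probes, 0.242% of those tested (limma, Benjamini-Hochberg). It was positive for 21 (0.164%) and negative for 10 (0.0782%). An unadjusted p under 0.05 was reached by 670, or 5.24%. Of the 31, 24 have a gene symbol, 17 with a positive and 7 with a negative interaction, and 29 had an interaction of at least 1 in size. The largest pattern by number was a level above all other groups when both agents were present, which 15 of the 31 showed, 12 of them named. Of all tested, 161 (1.26%) had this pattern. The other named genes divided into a reduced rise (Mmp14, Cd244a, Tarm1 and Sgo2a), a reduced fall (St3gal5, F10 and Alox5), effects that did not add up (Ednrb, H2-M2 and Hopx), a level below all other groups (Ms4a7) and a mixed pattern (Tmem65). A group counted as above or below another where the means differed by at least 0.5. Taken singly, a margin of 0.25, a margin of 1 and the deposited normalized values each left 26 of the 31 with their pattern. They were not the same 26: Cxcl1 changed its pattern with a margin of 1 and not of 0.25, and Alox5 the reverse. Hopx changed with either margin. Of the 24 named genes, 15 were above background in all 4 groups. For Rhou the fitted interaction is bounded from below, for Arg1 and Sgo2a from above, and for Fam20a, H2-M2, Selp, Actn3, Cd244a and Tarm1 not at all, since the groups at background have only an upper limit.

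**Figure D1:**
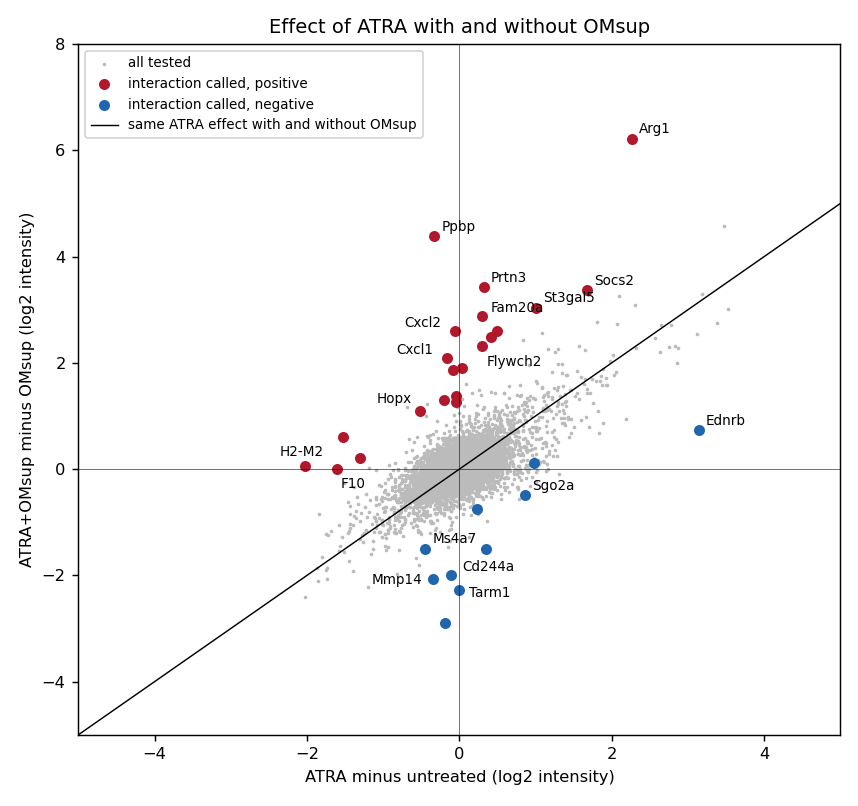
Effect of ATRA in the presence of OMsup (vertical axis, ATRA+OMsup minus OMsup, log2) against its effect in the absence of OMsup (horizontal axis, ATRA minus untreated, log2), 1 point per gene or probe tested. Large red and blue points are the 21 positive and 10 negative interactions. Arg1 and Ppbp lie farthest above the line of equal effects, and Ednrb lies farthest below it among the named genes.

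The largest fitted interaction was that of Ppbp, which encodes the precursor of the platelet-type CXC chemokine CXCL7, an attractant of neutrophils. Its log2 intensity was 10.68 and 11.31 with ATRA+OMsup, 4.83 and 4.77 with ATRA, 6.27 and 6.97 with OMsup, and 5.48 and 4.77 in untreated cells. Both arrays with the 2 agents together stood far above the other 6, among which the ATRA and untreated groups overlapped. The effect of ATRA was 4.38 with OMsup, and -0.33 without it (adjusted p 1.64e-05 and 0.755). The interaction was 4.70 ± 0.42 (SE, adjusted p 0.00164), and a second probe for Ppbp gave 4.91. The first rank of Ppbp depended on the background step: without background correction its interaction was 3.69, and that of Arg1 was 4.79.

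Cxcl2 and Cxcl1 encode closely related CXC chemokines that also attract neutrophils and lie in the same cluster of genes on chromosome 5. Cxcl2 read 6.91 and 7.20 with ATRA+OMsup, 5.39 and 5.40 with ATRA, 4.48 and 4.44 with OMsup, and 5.61 and 5.30 in untreated cells. Cxcl1 read 6.92 and 7.40 with ATRA+OMsup, 6.26 and 6.16 with ATRA, 4.88 and 5.26 with OMsup, and 6.33 and 6.42 in untreated cells. For both genes the order was the same: highest with both agents, lowest with OMsup alone, and ATRA close to untreated. OMsup thus had effects of opposite sign in the presence and the absence of ATRA, 1.67 and -0.99 for Cxcl2 and 0.95 and -1.31 for Cxcl1, all with an adjusted p under 0.05. The interaction was 2.66 ± 0.251 for Cxcl2 (SE, adjusted p 0.00164), with 2.22 on its second probe. For Cxcl1 it was 2.25 ± 0.291 (adjusted p 0.00783). That call ended without ATRA replicate 2 (2.20, adjusted p 0.0536) or without untreated replicate 2 (2.21, adjusted p 0.0635). With OMsup, Cxcl2 was above background on 1 of the 2 arrays.

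Between Ppbp and these genes on chromosome 5 lie Pf4, Cxcl3 and Cxcl15. Pf4, which encodes platelet factor 4, averaged 12.93 with ATRA+OMsup, 8.51 with ATRA, 10.67 with OMsup and 7.35 in untreated cells. Each agent raised Pf4 by itself (adjusted p 0.00518 for ATRA and 1.99e-06 for OMsup), and its interaction of 1.10 ± 0.263 did not pass (adjusted p 0.223). Cxcl3 and Cxcl15 had probes but were not among the genes tested. Because Ppbp, Pf4 and Selp are also known from platelets, megakaryocyte markers were examined: Gp1bb, Gp5 and Gp6 were above background on no array, Itga2b on 1 and Gp9 on 3 of the 8.

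The sequences before the start sites of these chemokine genes are shown because the genes lie in one cluster and were all highest with both agents, and that of Selp because it shares a motif with Ppbp. They are the 250 bases upstream of the RefSeq start on GRCm38.p6, all on the plus strand: chr5:90768268-90768517 for Ppbp, chr5:90890995-90891244 for Cxcl1, chr5:90903649-90903898 for Cxcl2 and chr1:164115014-164115263 for Selp. Capitals mark motif matches.
Ppbp: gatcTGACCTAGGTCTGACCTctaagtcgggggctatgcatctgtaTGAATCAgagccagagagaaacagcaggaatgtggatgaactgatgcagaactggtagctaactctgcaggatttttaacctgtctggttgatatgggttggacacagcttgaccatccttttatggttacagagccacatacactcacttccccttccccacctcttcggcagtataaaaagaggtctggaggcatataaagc
Cxcl1: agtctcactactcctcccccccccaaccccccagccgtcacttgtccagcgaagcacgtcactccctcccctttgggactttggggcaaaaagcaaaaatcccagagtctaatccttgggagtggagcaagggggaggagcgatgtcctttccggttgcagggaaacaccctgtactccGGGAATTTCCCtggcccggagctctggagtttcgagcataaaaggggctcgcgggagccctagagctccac
Cxcl2: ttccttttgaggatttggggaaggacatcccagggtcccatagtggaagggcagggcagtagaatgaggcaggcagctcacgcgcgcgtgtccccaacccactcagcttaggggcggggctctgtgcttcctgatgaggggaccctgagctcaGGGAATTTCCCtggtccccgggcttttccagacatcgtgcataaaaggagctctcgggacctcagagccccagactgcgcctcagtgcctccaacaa
Selp: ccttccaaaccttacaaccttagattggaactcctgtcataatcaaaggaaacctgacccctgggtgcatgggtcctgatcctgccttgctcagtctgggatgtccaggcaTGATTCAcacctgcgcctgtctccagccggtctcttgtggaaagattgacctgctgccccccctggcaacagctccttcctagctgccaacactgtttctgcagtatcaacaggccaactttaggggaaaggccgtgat
Both strands were searched from 250 bases before to 50 after each start, for 20 of the 24 named genes that had an entry. The motif DR5, a direct repeat of AGGTCA with 5 bases of any kind between the copies that retinoic acid receptors bind, was found in the Ppbp window, 246 bases before the start and on the minus strand. It occurs in 3 of all 32851 windows (0.00913%), and among 8218 tested genes with a window Ppbp was the only one to hold it. DR2, the same repeat with 2 bases between the copies, was found in 3 of all 32851 windows and in none of the 8218 tested genes. Its absence from the 20 genes therefore says nothing about them. TGANTCA, a loose form of the AP-1 site with any base in the middle, was found for Ppbp, Selp, Cd244a and Ms4a7. These are 4 of 20 genes (20%), against 6.41% of the tested genes. The usual AP-1 site has C or G in the middle, and only the match of Cd244a, TGAGTCA, has that. Ppbp matched as TGAATCA, and Selp and Ms4a7 as TGATTCA. TTCNNNGAA, bound by STAT factors, was found for Sgo2a alone, against 8.35% of the tested genes. GGGANNTTCC, an NF-kB motif added after the sequences had been read, was found for Cxcl1 and Cxcl2 and for 1.61% of the tested genes. In both promoters it matched on either strand in overlapping positions, 71 and 70 bases before the start of Cxcl1 and 97 and 96 bases before that of Cxcl2. The motifs matched different bases within each window, and a match describes letters only.

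Arg1, the enzyme that splits arginine into ornithine and urea and a mark of alternatively activated macrophages, was far higher with both agents than with either alone. Its log2 intensity was 13.75 and 13.76 with ATRA+OMsup, 6.59 and 6.84 with ATRA, 6.87 and 8.21 with OMsup, and 4.62 and 4.29 in untreated cells, where it was not above background. The combination stood clearly apart, and the 2 OMsup arrays differed from each other more than the arrays of any other group. Against untreated cells Arg1 was at least 568-fold higher with ATRA+OMsup, at least 4.34-fold higher with ATRA and at least 7.65-fold higher with OMsup. These bounds set the dim group to the lowest signal above background on each array. With OMsup the effect of ATRA was 6.22. The fitted interaction was 3.95 ± 0.471 (SE, adjusted p 0.00512), and with each array left out in turn it lay between 3.28 and 4.62. Because a lower true level in untreated cells would make it smaller, this fit bounds it only from above. That limit was 4.10, with untreated arrays set to the lowest signal above background. It holds for this probe and this background step only: a second probe gave a fitted 5.47, and without background correction the interaction was 4.79.

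Prtn3 encodes proteinase 3, a serine protease known from neutrophil granules and their precursors. It read 10.27 and 10.17 with ATRA+OMsup, 5.76 and 5.39 with ATRA, 6.70 and 6.90 with OMsup, and 5.50 and 5.01 in untreated cells. ATRA and untreated arrays overlapped, OMsup was higher, and the combination was higher still. The interaction was 3.10 ± 0.292 (SE, adjusted p 0.00164). Elane, its neighbour on chromosome 10 and another granule protease, averaged 6.27 with ATRA+OMsup, 5.33 with ATRA, 6.44 with OMsup and 5.95 in untreated cells, with an interaction of 0.45 ± 0.278 (adjusted p 1). Of 7 granulocyte markers with a probe, S100a8 and Mpo among them, 6 were above background on every array. Their summed intensity was 1832 to 2055 with ATRA+OMsup, 1557 to 1637 with ATRA, 2052 to 2595 with OMsup and 1989 to 2197 in untreated cells, so it was not highest with the combination.

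Fam20a, a pseudokinase of the secretory pathway, was close to background unless both agents were present. It read 6.89 and 7.31 with ATRA+OMsup, 4.51 and 4.75 with ATRA, 4.16 and 4.27 with OMsup, and 4.23 and 4.45 in untreated cells, and neither OMsup nor untreated arrays were above background. Fam20a was at least 5.6-fold higher with ATRA+OMsup than with OMsup, and the fitted interaction was 2.59 ± 0.262 (SE, adjusted p 0.00175), whose true size has no bound because OMsup and untreated arrays were at background. Akap7, an anchoring protein of the cyclic AMP dependent kinase, was well above background throughout on the probe used, while its other probes were above background on no array. It read 10.07 and 10.38 with ATRA+OMsup, 8.09 and 8.14 with ATRA, 8.19 and 8.47 with OMsup, and 8.13 and 8.03 in untreated cells. The 6 arrays without the combination lay close together, and the interaction was 1.86 ± 0.224 (SE, adjusted p 0.00528). Flywch2 was likewise highest with the combination, at 8.67 and 8.68 with ATRA+OMsup, 6.32 and 6.07 with ATRA, 6.23 and 6.50 with OMsup, and 6.01 and 5.80 in untreated cells. Its interaction was 2.02 ± 0.25 (SE, adjusted p 0.0058), and without ATRA replicate 2 it was 1.89 with an adjusted p of 0.0525.

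Selp encodes P-selectin, an adhesion molecule for leukocytes. It read 6.69 and 7.20 with ATRA+OMsup, 4.33 and 4.44 with ATRA, 5.03 and 5.12 with OMsup, and 4.52 and 4.42 in untreated cells, and it was not above background with ATRA or in untreated cells. Selp was at least 5-fold higher with ATRA+OMsup than with ATRA, and the fitted interaction was 1.95 ± 0.263 (SE, adjusted p 0.0099), whose true size has no bound because ATRA and untreated arrays were at background. That call ended when either ATRA array or either untreated array was left out (adjusted p up to 0.0813). Socs2, a suppressor of cytokine signalling, differed in that ATRA raised it alone by 1.67 and with OMsup by 3.37. Its arrays read 8.06 and 8.03 with ATRA+OMsup, 6.39 and 6.15 with ATRA, 4.82 and 4.52 with OMsup, and 4.43 and 4.77 in untreated cells. OMsup and untreated arrays overlapped, and each was above background on 1 array of the 2. The interaction of Socs2 was 1.70 ± 0.268 (SE, adjusted p 0.0315), and the call held only where OMsup replicate 1 was the array left out (adjusted p up to 0.211 otherwise).

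Rhou and Actn3 were named after their values were seen, and Actn3 encodes an actin cross-linker known from muscle. Rhou read 6.05 and 6.08 with ATRA+OMsup, and 4.38 to 4.77 over the other 6 arrays, with a fitted interaction of 1.51 ± 0.202 (SE, adjusted p 0.00973) and a lower bound of 1.31. Actn3 read 5.85 and 5.80 with ATRA+OMsup and was not above background in any other group, with a fitted interaction of 1.42 ± 0.201 (adjusted p 0.014) whose true size has no bound. It passed the detection filter through the ATRA+OMsup arrays alone, and with no such filter its call ended (adjusted p 0.0545). Leaving out either ATRA or either untreated array ended both calls (adjusted p up to 0.0771 for Rhou and up to 0.117 for Actn3). The Actn3 call also ended without ATRA+OMsup replicate 1 (adjusted p 0.0632) or OMsup replicate 2 (adjusted p 0.0725).

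**Figure D2:**
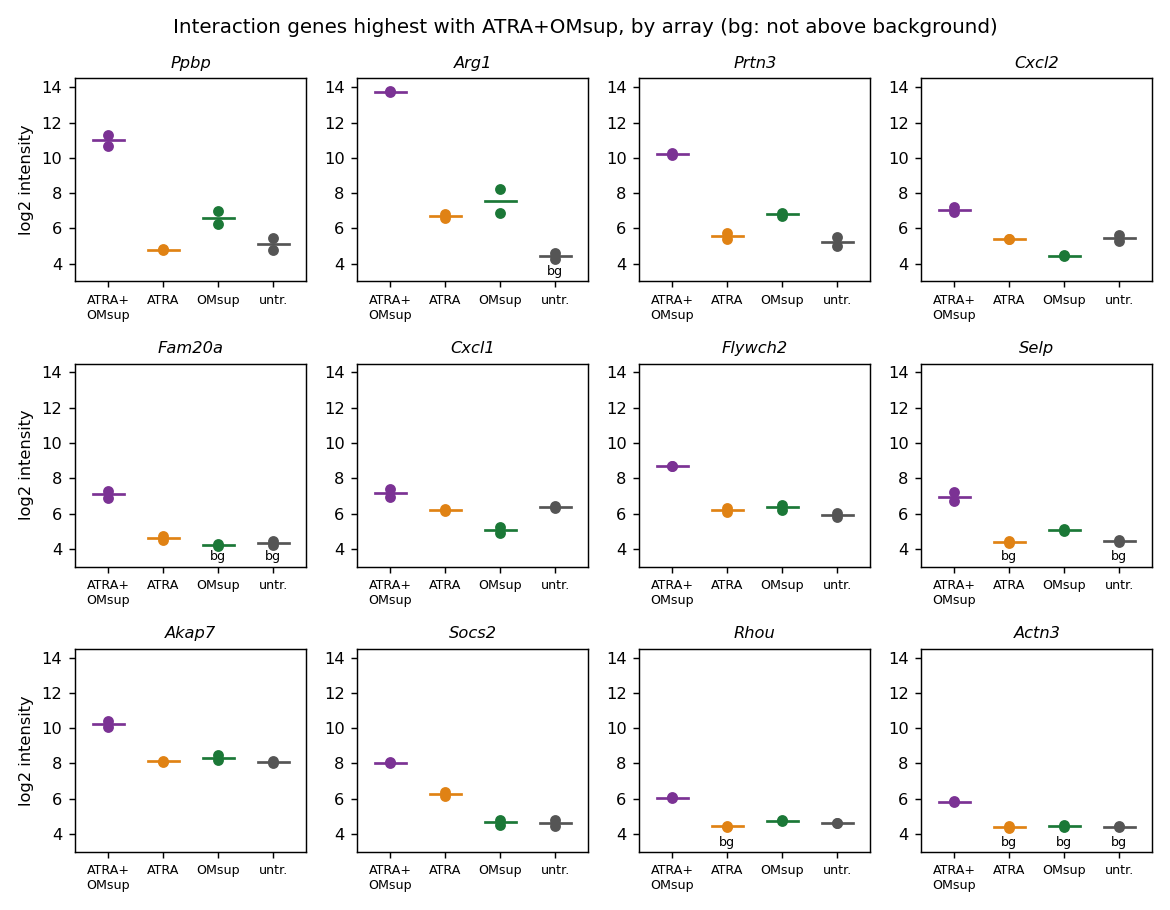
Log2 intensity on each array (points) and group mean (line) of the 12 named genes that were highest with ATRA+OMsup, with groups in the order ATRA+OMsup, ATRA, OMsup and untreated. For each gene both ATRA+OMsup arrays lie above all other arrays, and bg marks groups with no array above background.

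In another set of genes, a rise seen with OMsup alone was smaller or absent when ATRA was present as well. Tarm1, an immunoglobulin-like receptor of myeloid cells, read 4.46 and 4.34 with ATRA+OMsup, 4.23 and 4.28 with ATRA, 6.81 and 6.52 with OMsup, and 4.31 and 4.21 in untreated cells. Cd244a, a receptor of the SLAM family, read 4.38 and 4.49 with ATRA+OMsup, 4.27 and 4.18 with ATRA, 6.50 and 6.34 with OMsup, and 4.39 and 4.29 in untreated cells. Both were above background with OMsup only and not when ATRA was present as well. Tarm1 was at least 4.21-fold lower with ATRA+OMsup than with OMsup, and the fitted interaction was -2.27 ± 0.222 (SE, adjusted p 0.00168). Cd244a was at least 3.54-fold lower with ATRA+OMsup than with OMsup, and the fitted interaction was -1.88 ± 0.207 (adjusted p 0.00306). Both genes passed the detection filter through the OMsup arrays alone, and with the other groups at background the true size of either interaction has no bound.

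Mmp14, a membrane-bound metalloproteinase that cuts collagen and activates other proteinases, showed the same pattern at measured levels in all groups. It read 6.90 and 6.97 with ATRA+OMsup, 6.03 and 5.99 with ATRA, 8.99 and 9.01 with OMsup, and 6.35 and 6.37 in untreated cells. No groups overlapped. OMsup raised Mmp14 by 0.93 with ATRA and by 2.64 without it (adjusted p 0.00227 and 2.09e-06). The interaction of Mmp14 was -1.71 ± 0.213 (SE, adjusted p 0.0058), and without ATRA replicate 2 it was -1.73 with an adjusted p of 0.0513. Mmp14 was the only one of 10 tested metalloproteinases and inhibitors whose interaction passed. A probe without a gene symbol had the same pattern, with a fitted interaction of -2.71 ± 0.246 (SE, adjusted p 0.00164). Its ATRA and untreated arrays were at background, so the true size has no bound. It read 4.71 and 4.76 with ATRA+OMsup, 4.25 and 4.29 with ATRA, 7.84 and 7.43 with OMsup, and 4.50 and 4.40 in untreated cells.

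Sgo2a, a shugoshin that protects cohesion at centromeres, rose with ATRA alone and not with OMsup present. It read 4.60 and 4.56 with ATRA+OMsup, where it was not above background, 6.23 and 6.18 with ATRA, 5.06 and 5.08 with OMsup, and 5.34 and 5.36 in untreated cells. The fitted interaction was -1.35 ± 0.209 (SE, adjusted p 0.0283), and it can be no less negative than -1.33. The call ended with any one of the 8 arrays left out (adjusted p up to 0.154).

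In the opposite direction, the presence of the other agent reduced a fall. St3gal5, a sialyltransferase that starts the synthesis of gangliosides, read 9.69 and 9.51 with ATRA+OMsup, 10.08 and 9.99 with ATRA, 6.39 and 6.72 with OMsup, and 8.93 and 9.12 in untreated cells. Its level was lowest by far with OMsup alone, and both ATRA+OMsup arrays lay above the untreated arrays. The effect of OMsup was -0.44 with ATRA and -2.47 without it (adjusted p 0.125 and 4.87e-06). The interaction was 2.03 ± 0.225 (SE, adjusted p 0.00306), with 1.79 on a second probe.

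F10 encodes coagulation factor X, which is also made by peritoneal macrophages of mice. It read 8.92 and 9.01 with ATRA+OMsup, 6.52 and 6.62 with ATRA, 8.79 and 9.13 with OMsup, and 8.16 and 8.20 in untreated cells. ATRA alone gave the lowest level, whereas the ATRA+OMsup and OMsup arrays overlapped. The effect of ATRA was 0.01 with OMsup and -1.61 without it (adjusted p 0.993 and 0.000212). The interaction was 1.61 ± 0.222 (SE, adjusted p 0.0112). Leaving out either ATRA array, either untreated array or OMsup replicate 1 ended the F10 call (adjusted p up to 0.0946). Alox5, the lipoxygenase that starts leukotriene synthesis, read 6.11 and 5.74 with ATRA+OMsup, 4.73 and 4.79 with ATRA, 5.77 and 5.67 with OMsup, and 5.99 and 6.14 in untreated cells. Its arrays overlapped between ATRA+OMsup and both OMsup and untreated cells, and the ATRA arrays were lowest. The interaction of Alox5 was 1.51 ± 0.249 (SE, adjusted p 0.0393). It held only where ATRA+OMsup replicate 2 was the array left out (adjusted p up to 0.216 otherwise), and without background correction it was 0.56 with an adjusted p of 0.0575.

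Ednrb, the endothelin receptor type B, was strongly raised by each agent, and the rises did not add up on the log2 scale. It read 13.38 and 13.63 with ATRA+OMsup, 11.90 and 11.82 with ATRA, 12.59 and 12.97 with OMsup, and 8.91 and 8.53 in untreated cells. The groups did not overlap, and the combination was the highest. The effect of ATRA was 0.73 with OMsup and 3.14 without it, and the interaction was -2.41 ± 0.231 (SE, adjusted p 0.00164). On a linear scale the sign was the other way: mean intensities were 11662, 3719, 7078 and 425 in the same order of groups, and the combination exceeded the sum of both single rises by 1289. Ednrb was the exception in this, since 30 of the 31 interactions had the same sign on both scales. Its other 2 detected probes gave interactions of -1.11 and -1.14 that did not pass (adjusted p 1 and 0.448).

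H2-M2, a non-classical class I histocompatibility gene, was above background in untreated cells alone, at 6.52 and 6.30. It read 4.30 and 4.37 with ATRA+OMsup, 4.40 and 4.35 with ATRA, and 4.28 and 4.28 with OMsup. Against untreated cells H2-M2 was at least 3.51-fold lower with ATRA+OMsup, at least 3.45-fold lower with ATRA and at least 3.47-fold lower with OMsup. The fitted interaction of 2.08 ± 0.208 (SE, adjusted p 0.00173) rests on 3 groups at background, so its true size has no bound. H2-M2 passed the detection filter through the untreated arrays alone. If untreated cells did not receive the serum-free medium, a shift caused by that medium cannot be told apart from this pattern. Hopx, a homeodomain protein that does not bind DNA, read 7.49 and 7.02 with ATRA+OMsup, 6.29 and 6.19 with ATRA, 6.14 and 6.17 with OMsup, and 6.76 and 6.77 in untreated cells. Its level was lower than untreated with either agent and higher than untreated on both arrays with the combination. The interaction of Hopx was 1.62 ± 0.263 (SE, adjusted p 0.0376), and it held only where ATRA+OMsup replicate 2 was the array left out (adjusted p up to 0.23 otherwise). Its call also ended after scaling the arrays to one median (adjusted p 0.0525).

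Ms4a7, a membrane protein of macrophages, was lowest with both agents, at 11.24 and 11.35 with ATRA+OMsup, 12.05 and 12.24 with ATRA, 12.82 and 12.78 with OMsup, and 12.67 and 12.53 in untreated cells. Its interaction was -1.05 ± 0.159 (SE, adjusted p 0.0239), and the call held only where ATRA+OMsup replicate 2 was the array left out (adjusted p up to 0.211 otherwise). Tmem65, a protein of the inner mitochondrial membrane, read 10.05 and 10.05 with ATRA+OMsup, 10.66 and 10.72 with ATRA, 10.75 and 10.86 with OMsup, and 10.45 and 10.46 in untreated cells. Its interaction was the smallest that passed among the named genes, -0.99 ± 0.162 (SE, adjusted p 0.0393), and it did not pass with any one array left out (adjusted p up to 0.284). Both calls ended in a fit without a trend of variance on intensity and after scaling the arrays to one median.

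**Figure D3:**
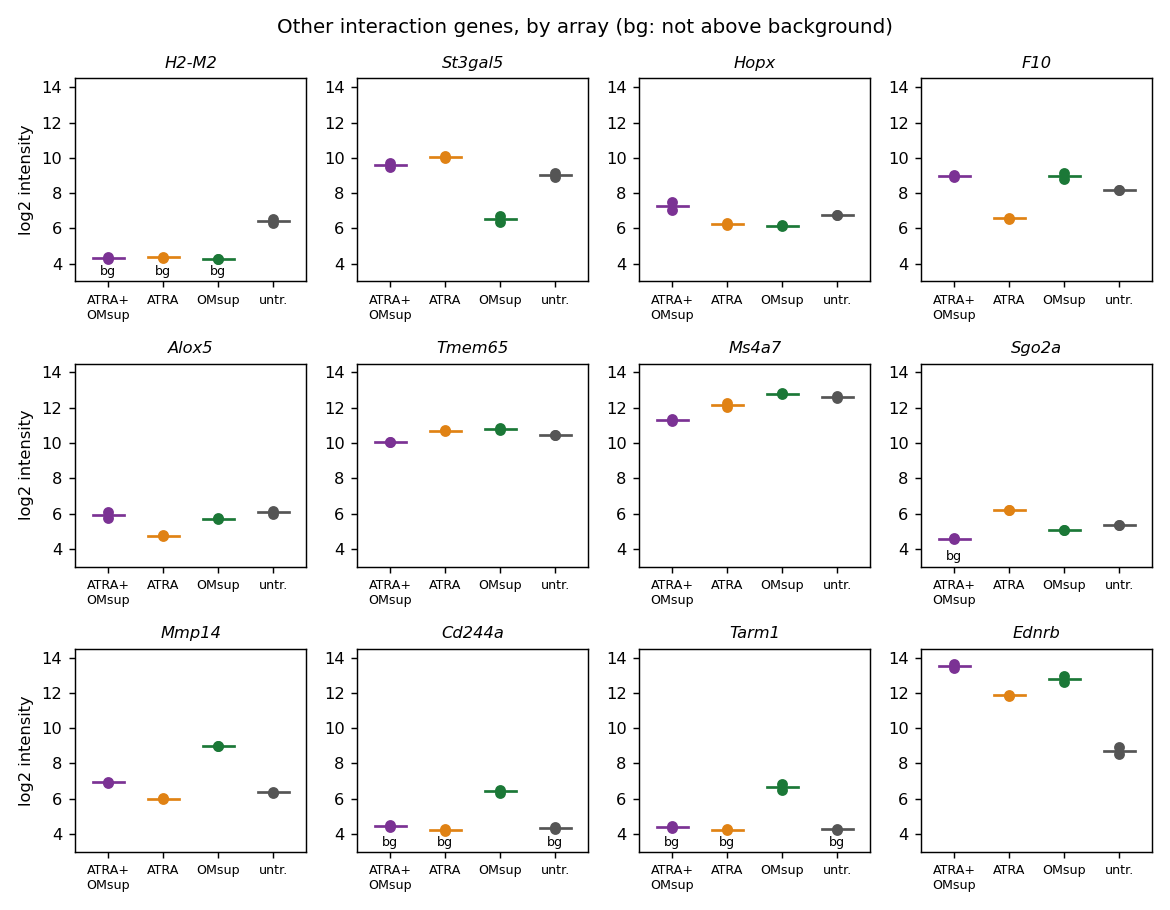
Log2 intensity on each array (points) and group mean (line) of the other 12 named interaction genes, with groups in the order ATRA+OMsup, ATRA, OMsup and untreated. Tarm1 and Cd244a are above background with OMsup alone, St3gal5 is lowest with OMsup, F10 is lowest with ATRA, and H2-M2 is above background in untreated cells alone.

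Of the 24 named genes, 11 kept their call in every fit that included them: Ppbp, Arg1, Prtn3, Cxcl2, Fam20a, H2-M2, St3gal5, Akap7, Cd244a, Tarm1 and Ednrb. The fit of probes detected on all 8 arrays held 13 of the 24. Arg1, Cxcl2, Fam20a, H2-M2, Cd244a and Tarm1 were not in it, so that fit could not end their calls. In fits of all arrays Hopx, Alox5, Actn3, Tmem65, Ms4a7 and Sgo2a lost their call under at least 1 setting (adjusted p up to 0.117). No interaction of these 24 genes changed its sign in any fit. The size of dim genes depended on the background step: without background correction, 13 of the 24 had an interaction that was smaller by more than 1.5 times, such as 1.13 for Cxcl2, 1.15 for Fam20a, 0.78 for H2-M2 and -0.89 for Tarm1. Ednrb, at -2.21 without the correction, and Arg1, at 4.79, were not among them. Of the 24 genes, 15 had at least 1 other probe. Of these 26 other probes, 11 were above background on at least 2 arrays, and all 11 gave an interaction of the same sign as the main probe. Those of Ppbp, Arg1, Cxcl2 and St3gal5 passed. The others did not pass and were smaller in size: 0.64 and 0.66 for Alox5 (adjusted p 0.916 and 0.796), -0.66 and -0.73 for Tmem65 (0.767 and 0.697), -0.91 for Ms4a7 (0.942) and those of Ednrb given above. Fam20a, Akap7, Socs2, Hopx, Actn3, Mmp14 and Cd244a had other probes, but these were above background on at most 1 array. The calls of these genes rest on 1 probe each.

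**Figure D4:**
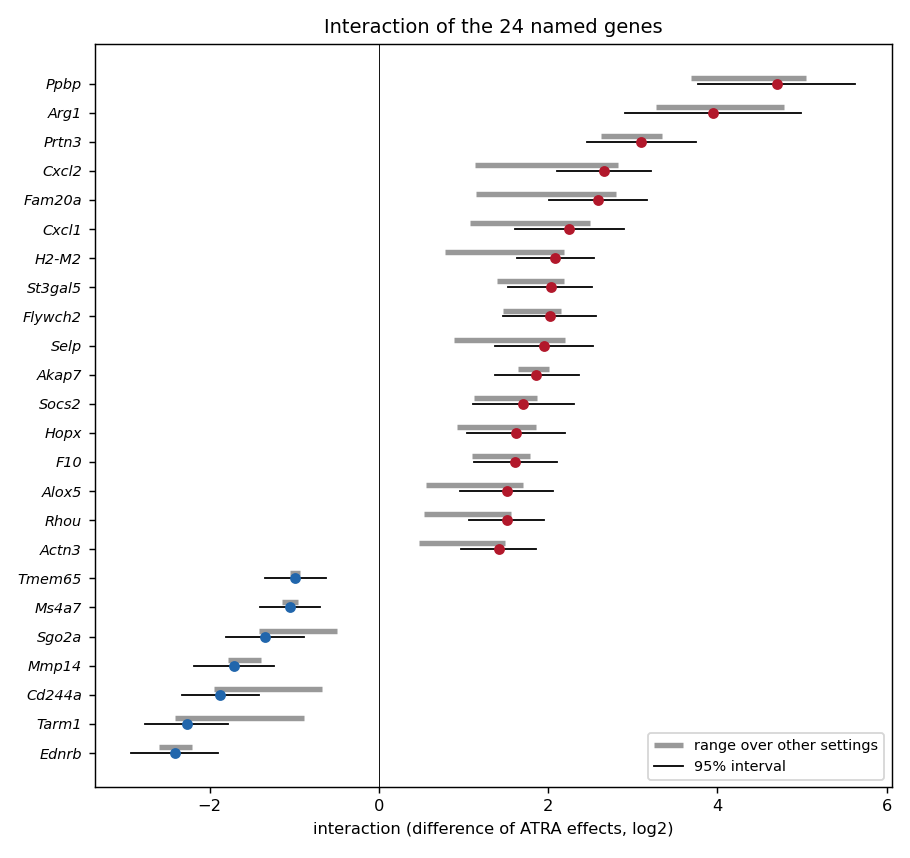
Interaction (log2) of the 24 named genes: points are the fitted values, thin lines their 95% intervals and grey bars the range over the other settings run. No bar reaches 0, and the bars of Cxcl2, Fam20a, H2-M2, Cd244a and Tarm1 extend farthest toward it among genes called in every fit that included them.

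Most genes lay close to additivity. The 95% interval of the interaction lay within -1 and 1, a 2-fold difference either way, for 10983 of 12793 (85.9%). Among genes called for ATRA alone or OMsup alone this held for 1078 of 1519 (71%), and among genes called for both for 106 of 198 (53.5%). Of the genes called for both, it held for 27 of 44 that were higher with each agent, 44 of 73 that were lower with each, and 35 of 81 (43.2%) with opposite directions. Of these 198 genes, 7 had an interaction that passed, so an interval beyond the limits mostly left additivity undecided. The untreated arrays enter both the choice of these genes and the interaction, so nothing is read from differences between the shares. Apoc2, an apolipoprotein, is an example of 2 rises that added up. Its arrays read 11.85 and 11.47 with ATRA+OMsup, 10.05 and 9.84 with ATRA, 9.85 and 9.82 with OMsup, and 8.04 and 7.75 in untreated cells, and its interaction was -0.23 ± 0.231 (SE). P4ha2, a subunit of collagen prolyl hydroxylase, had an interaction of -0.24 ± 0.211 with both agents raising it. Pparg, the fatty acid receptor, was lower with either agent and read 7.34 and 7.21 with ATRA+OMsup, 9.85 and 9.96 with ATRA, 7.94 and 7.77 with OMsup, and 10.50 and 10.79 in untreated cells. Its interaction was 0.16 ± 0.213.

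Clec4n is an example of opposite effects that added up. Clec4n, the lectin receptor Dectin-2, averaged 9.98 ± 0.02 with ATRA+OMsup, 7.12 ± 0.08 with ATRA, 12.39 ± 0.07 with OMsup and 9.16 ± 0.21 in untreated cells (SD, n = 2 each). The effect of ATRA on Clec4n was -2.41 with OMsup and -2.03 without it, and the interaction was -0.37 ± 0.197 (adjusted p 1). Socs3, the feedback inhibitor of IL-6 signalling, was raised by OMsup by 5.65 with ATRA and by 5.35 without it. Hpgd, which inactivates prostaglandins, was lower with either agent, with an interaction of 0.27 ± 0.316. For Hpgd and Clec4n the interval left these limits on values without background correction, where the interaction was 0.68 for Hpgd and -0.74 for Clec4n.

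The pairs of arrays behind the 2 effects of ATRA share no array, so the calls can be set side by side. ATRA changed 575 genes or probes with OMsup (4.49% of those tested) and 520 without it (4.06%). Both lists held 298, which is 51.8% of the list with OMsup and 57.3% of the list without it, and all 298 changed in the same direction. Of 499 called in one of the 2 comparisons only, 27 had an interaction that passed, so a call in one comparison alone mostly did not come with a tested difference. OMsup changed 1331 with ATRA (10.4%) and 1197 without it (9.36%). Of the 804 called in both, 801 changed in the same direction and 3 in opposite directions. Across the 12793 genes or probes, which are not independent replicates, the correlation of the effects with and without the other agent was 0.636 for ATRA and 0.794 for OMsup.

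Of 505 genes on 26 lists, 462 had a probe and 373 were tested. The interaction passed for 10 of these, or 2.68%, beside 0.242% of all genes and probes tested. The lists were chosen with earlier results known, so nothing is read from that difference. Of the lists, 9 held such a gene and 17 held none. Medians of the interaction ran from -0.51 to 0.54, beside -0.01 over all genes tested. Chemokines and their receptors had the highest median, 0.54, with 18 of 23 members above 0, beside 48.3% of all tested, and 3 passing, Ppbp, Cxcl1 and Cxcl2. Among the rest of that list, the monocyte chemokine Ccl6 averaged 11.94 with ATRA+OMsup, 10.87 with ATRA, 8.68 with OMsup and 8.77 in untreated cells, with an interaction of 1.16 ± 0.248 that did not pass (adjusted p 0.147). Cx3cr1, the fractalkine receptor, had an interaction of 1.85 ± 0.339 (adjusted p 0.0776).

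Genes typical of large peritoneal macrophages had a median of 0.38 over 14 members, with 3 positive interactions that passed (Arg1, Selp and F10) and 1 negative (Ednrb). Fn1, which encodes fibronectin, averaged 6.30 with ATRA+OMsup, 4.43 with ATRA, 4.98 with OMsup and 4.39 in untreated cells, and its interaction of 1.28 did not pass (adjusted p 0.154). ATRA raised 6 of the 14 with OMsup, where 2.73% of all tested rose, and 2 without it, where 2.35% rose. Arg1 and Selp are among the 6, and this list too was chosen with earlier results known, so nothing is read from these counts. Of 19 genes driven by NF-kB, 16 had an interaction above 0, beside 48.3% of all tested, and Cxcl1 and Cxcl2 passed. Both also stand on the chemokine list. The NF-kB list was likewise chosen with earlier results known, so nothing is read from its count. Il1b, a cytokine on that list, had a negative value of -1.01 ± 0.28 (adjusted p 0.379). Of 17 retinoid receptors, enzymes and targets, Arg1 alone passed. Tgm2, the transglutaminase that retinoids induce, was raised by ATRA by 1.95 with OMsup and by 0.91 without it, and its interaction of 1.04 did not pass (adjusted p 0.237).

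The lists of alternative activation (Arg1 and Socs2, of 16), IL-6 and STAT3 response (Socs2, of 19), coagulation (F10, of 11), lineage transcription factors (Hopx, of 19) and metalloproteinases (Mmp14, of 10) account for the other lists with a call. Lists overlap, and Arg1 stands on 3 of them. The lowest median was that of 20 cell cycle genes, -0.51, with 3 members above 0, beside 48.3% of all tested. None of the 20 passed in limma, and 8 had an unadjusted p under 0.05, which 5.24% of all tested had. ATRA raised none of these 20 with OMsup (3 at an unadjusted p under 0.05), where 2.73% of all tested rose. Without OMsup it raised 8, where 2.35% of all tested rose, among them Top2a, the topoisomerase of dividing cells. OMsup lowered 18 of the 20 in the presence of ATRA and 16 in its absence, beside 694 and 598 of all 12793 tested. Top2a averaged 5.77 with ATRA+OMsup, 7.66 with ATRA, 5.26 with OMsup and 6.35 in untreated cells, with an interaction of -0.79 (adjusted p 0.558). Of 18 genes of cholesterol synthesis, 1 had an interaction above 0, beside 48.3% of all tested, and the median was -0.36. None passed in limma, and 6 had an unadjusted p under 0.05. The largest in size was that of Hsd17b7, -0.87 ± 0.234 (adjusted p 0.341). MHC class II presentation was close to additive, with a median of -0.02 over 10 members. Cd74, the invariant chain, averaged 10.70 with ATRA+OMsup, 12.45 with ATRA, 11.77 with OMsup and 13.36 in untreated cells, and its interaction was -0.16 (adjusted p 1).

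**Figure D5:**
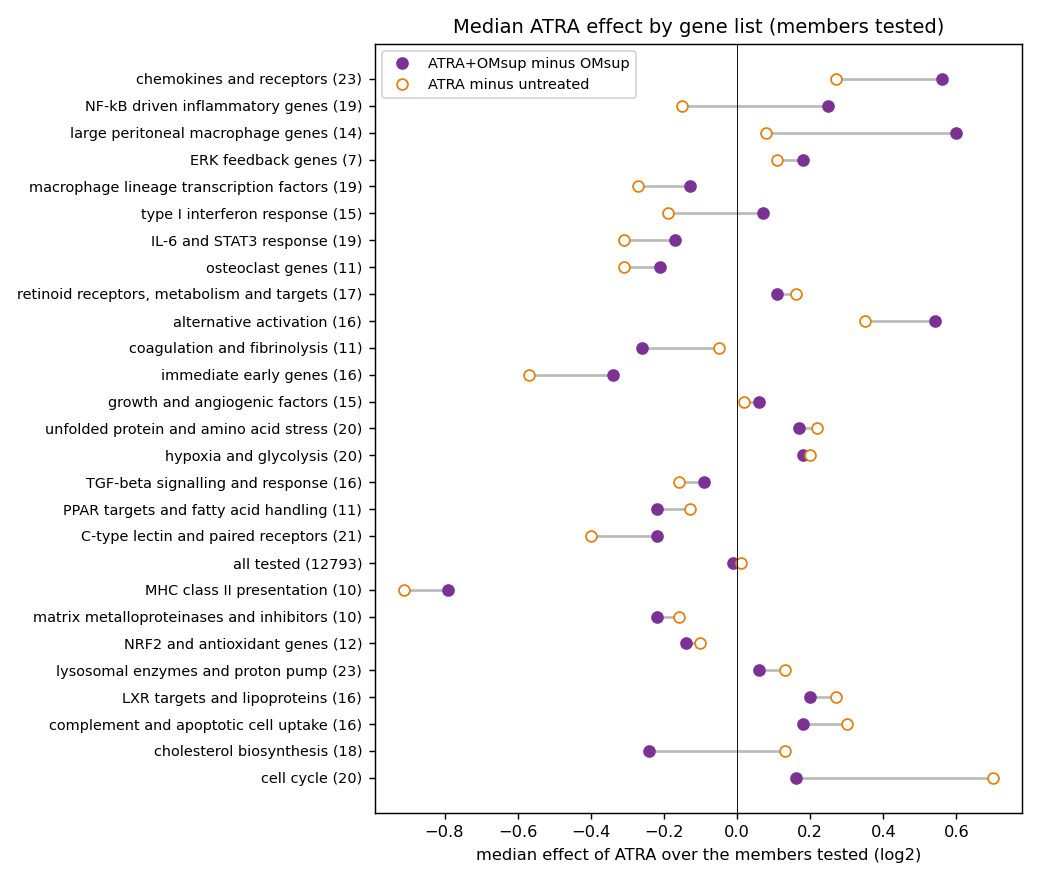
Median effect of ATRA (log2) over the tested members of each gene list, with OMsup (filled points, ATRA+OMsup minus OMsup) and without it (open points, ATRA minus untreated), and the number of members in parentheses. Lists are ordered by the median interaction, from chemokines and receptors at the top to cell cycle at the bottom.

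In lists with no call, the member with the largest interaction is given as a value. Klf2, a transcription factor of resting cells, had 1.20 ± 0.231 (adjusted p 0.099). Dcstamp, a fusion protein of osteoclasts, had 1.26 ± 0.285, and Usp18, which removes the ubiquitin-like modifier of the interferon response, had 1.01 ± 0.285. On the negative side, Scd1, the stearoyl-CoA desaturase, had -1.24 ± 0.252, Aurka, a mitotic kinase, had -1.24 ± 0.322, and Asns, the asparagine synthetase, had -1.10 ± 0.248. Axl, a receptor for apoptotic cell uptake, had -1.04 ± 0.245, with means of 9.10 with ATRA+OMsup, 11.44 with ATRA, 8.24 with OMsup and 9.55 in untreated cells. Angptl4, an inhibitor of lipoprotein lipase, had -0.98 ± 0.259. Nrg1, a ligand of ERBB receptors, had -0.95 ± 0.33. None of these passed after adjustment over all genes tested.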

How the data were processed

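The authors deposited a table of non-normalized intensity with a detection p-value for each of 45281 probes and each array, per the file headers. The values show a linear scale without background subtraction, with array medians of 92.59 to 98.21. A second deposited table held quantile-normalized linear intensity (medians 95.07 to 95.08) and served as an alternative. Scanner software is not named in the labels, and 1348 empty lines were left out. Per the labels, total RNA was amplified to biotin-labelled cRNA for Illumina arrays.

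Intensities were background-corrected and quantile-normalized with neqc (offset 16, with the negative control level estimated from detection p-values) in limma 3.58.1 and R 4.3.3. A probe was kept where its detection p was under 0.05 on 2 or more arrays. Symbols came from GEO's platform annotation: 34885 probes had 1 symbol, 18 several and 10378 none, and probes of the last kinds are not named. The brightest probe stood for a gene. The 4 group means were fitted to all 8 arrays by lmFit, and eBayes was run with its trend option. Within each comparison, Benjamini-Hochberg adjustment covered all 12793 p-values. The prior gave 6.62 degrees of freedom beside 4 of the residuals, and the median SE of the interaction was 0.242. The number of arrays limits the precision.

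The members, gene lists and tests were chosen with earlier results of these data known. Named genes were the 12 largest positive and negative interactions that passed, the 2 largest of each pattern, up to 3 called members of each list, the largest member of lists with no call (those with sizes near 1 are given), Fam20a, Flywch2, Akap7 and Hopx, and 6 additive examples. Other genes given as values, the genes beside Ppbp and Prtn3, and the megakaryocyte markers were chosen after values were seen. Sequences and gene positions are RefSeq's, on GRCm38.p6. Alternatives were no background correction, the deposited normalized table, another offset, scaling, detection filters, probes taken singly, eBayes without a trend, array weights, a replicate block and each array left out. Setting groups below background to the lowest detected signal, and an adjusted p under 0.1, were added after seeing the data.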

Additional observations from a re-analysis of the deposited data

Results flagged for a closer look

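The effect of OMsup on Cxcl2 had opposite signs in the presence and the absence of ATRA, 1.67 and -0.99, and the difference, which is the interaction, was 2.66 (limma, adjusted p 0.00164). The same held for Cxcl1, with 0.95 and -1.31 and a difference of 2.25 (adjusted p 0.00783). For Hopx both effects had opposite signs: that of ATRA was 1.10 with OMsup and -0.52 without it, and that of OMsup was 1.01 with ATRA and -0.61 without it, and the difference was 1.62 (adjusted p 0.0376). Of the 4 effects on Hopx, those in the presence of the other agent passed by themselves (adjusted p 0.00571 for ATRA and 0.0048 for OMsup), and those without it did not (adjusted p 0.205 and 0.073).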

How the results depend on the processing

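The count of 31 interactions was 26 to 41 with no background correction, the deposited normalized values, an offset of 50, scaled arrays, no detection filter, probes taken singly, no trend or array weights. It was 12 among probes detected on all 8 arrays, and 43 at an adjusted p under 0.1, a limit chosen after seeing the data. Fewer genes enter the first of these. With the replicate block the interaction count was 65, and ATRA changed 899 with OMsup and 924 without it; under the block every named interaction gene kept its call, and Klf2 (adjusted p 0.0255), Scd1 (0.0464) and Axl (0.0461) gained one. The correlations of replicate deviations were 0.433, 0.46 and 0.532 among the 3 stimulated groups and -0.00985, 0.035 and 0.209 between these and untreated cells. With 2 numbers, and not all correlations above 0.1, the numbers were not taken to pair the samples. With each array left out in turn, the interaction count was 14 to 34. Low counts came without ATRA replicate 1 (20) or 2 (14) and untreated replicate 1 (19) or 2 (16). Of the 31, 14 to 27 were called in these fits. The counts ran from 321 to 481 for ATRA with OMsup, 219 to 595 for ATRA without OMsup, 674 to 1287 for OMsup with ATRA, 613 to 1323 for OMsup without ATRA and 1114 to 1911 for both agents against none (main count 1937). Such fits leave a group with 1 array, which is assumed to vary like the others, and the cause of these differences was not tested. Over all settings the 24 named genes kept direction and call 359 times and lost the call 86 times, and no direction reversed. Signal over background limits the genes at or near it, whose interaction sizes shrink without background correction.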
